A study of Mus musculus with 12 samples.

Results

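Arc, Npas4, Homer1, Bdnf, Sik1, Crem and Gem are genes best known for their rapid transcription in stimulated neurons and for regulation by CREB, the cAMP response element binding protein. They were chosen by name, with earlier results of these data known, as were the further gene lists below. The members were matched by symbol to the Ensembl identifiers of the count tables and make up 7 of the 49671 genes listed. All 7 passed the filter on low counts (above 1 read in 3 or more of the libraries) and were among the 18668 genes tested. They were measured here in NIH 3T3 cells, a mouse fibroblast line derived from embryos and immortalized in culture, by sequencing of ribosome-depleted total RNA. Cells transfected with either a control or a Lap2 siRNA were serum-starved (0.3% FBS), and some were then stimulated with 15% FBS for 45 min, which gave 4 groups of 3 libraries. Total counts ranged from 18026298 to 26265253 per library. The labels do not say whether the libraries of a group came from separate cultures. The study's methods state that RNA was extracted from triplicates, without saying what a replicate was. The p-values thus measure the spread between these libraries, which may be technical.

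CREB is held at cAMP response elements (CRE) in promoters and is switched on when kinases phosphorylate it. Protein kinase A acts downstream of cAMP, and calcium/calmodulin-dependent, RSK and MSK kinases carry calcium and growth-factor signals. Phosphorylated CREB recruits the coactivators CBP and p300, and CRTC coactivators enter the nucleus when SIK kinases no longer hold them in the cytoplasm. Serum growth factors also switch on immediate-early genes in fibroblasts through serum response factor, so a gene of this kind can carry more than one type of inducible element.

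The siRNA target was read first. Tmpo, which encodes the Lap2 isoforms, had 2775, 2805 and 2885 normalized counts in starved control cells and 982, 1175 and 1093 in starved Lap2-depleted cells. After serum it had 3264, 3243 and 3019 normalized counts in control cells and 767, 745 and 607 in Lap2-depleted cells. Every library treated with Lap2 siRNA was below every control library of the same serum condition. A normalized count is the read count of a gene scaled to a common library size with TMM factors.

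The promoter sequences of Npas4, Homer1 and Bdnf are shown because the CRE is the element through which CREB acts and these are the members for which a reference window was used. RefSeq promoter windows (build GRCm38.p6, 250 bases before to 50 after each start) were at hand for these 3 genes, with 1 window for Npas4, 2 for Homer1 and 7 for Bdnf. The promoters of Arc, Sik1, Crem and Gem were not analysed here. The full CRE palindrome TGACGTCA and the CArG box, the binding element of serum response factor, were in none of the 10 windows (0), against 1.79% and 1.63% of all 32851 windows. The shorter core of the CRE, TGACG or CGTCA on the other strand, was searched alone, and any full CRE contains it. Capitals mark this core in the stretches shown, which run 5′ to 3′ and lie before the start. The Npas4 stretch is chr19:4990130-4990156 on the minus strand, in the untranslated part of the first exon of 1 longer GENCODE M21 transcript of the gene. The Homer1 stretches are chr13:93303698-93303724 and chr13:93303732-93303756 on the plus strand, in an intron of 1 longer transcript. The Bdnf stretch is chr2:109692390-109692416 on the plus strand, in introns of 5 transcripts.
Npas4: gttcgaCGTCAcgggaTGACGtcggaa
Homer1, first stretch: agcTGACGtgagcggagggTGACGtat
Homer1, second stretch: gaggagcgcgcTGACGttgctattt
Bdnf: atgacagctcaCGTCAaggcagcgtgg

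The Npas4 window held the core 2 times, at -179 to -175 and -169 to -165, and the word TATAA at -26 to -22 (TATAA on either strand was in 24.9% of all windows). The first Homer1 window held the core 3 times, at -56, -40 and -14 (first bases), and the second window had none. Of all windows, 20.8% held the core at least once and 1.03% held it 3 times or more. The third Bdnf window held the core 1 time, at -35 to -31, and the other 6 windows had no core. The sixth Bdnf window held TATAA on the other strand (TTATA), at -198 to -194 and at 16 to 20. These matches describe the reference letters and not bound factors.

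Serum stimulation raised 6 of the 7 genes in control siRNA treated cells and all 7 in Lap2-depleted cells, by between 1.44-fold (Gem) and 79.0-fold (Arc) in the former. A gene was called at an adjusted p under 0.05 in edgeR's quasi-likelihood test. Of all genes tested, serum changed 29.5% with control siRNA (15.6% higher) and 33.2% with Lap2 siRNA (18.3% higher). When scaled to total counts, 1632 genes were higher and 5847 lower with control siRNA, against 2915 and 2597, and 1658 were higher and 5951 lower with Lap2 siRNA, against 3420 and 2777. A call with a log2FC above 1 was reached by 5 of the 7 genes with control siRNA and by 4 with Lap2 siRNA, against 3.76% of all genes with either siRNA. The starved and stimulated groups did not overlap in the same 6 and 7 genes (higher without overlap over all genes, 21.3% and 22.6%). The median log2FC of the 7 genes was 1.48 in control siRNA treated and 1.85 in Lap2-depleted cells, beside -0.009 and 0.003 over all genes tested. In bulk RNA, fewer cells expressing a gene and less RNA per cell cannot be told apart.

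Arc (ENSMUSG00000022602, minus strand of chromosome 15 from 74669083 to 74672570 in mm10, the build of all gene positions given) encodes a capsid-forming protein that promotes the removal of AMPA receptors from synapses. It had 114, 115 and 89.5 normalized counts in starved control cells and 8797, 8386 and 7979 after serum. In Lap2-depleted cells it had 180.0, 190.4 and 188 normalized counts before and 7875, 8077 and 7201 after serum. The serum-stimulated libraries stood far above the starved ones with both siRNAs. The log2FC on serum was 6.29 with control siRNA (standard error 0.092, edgeR adjusted p = 1.29e-32) and 5.37 with Lap2 siRNA (edgeR adjusted p = 1.72e-31). Measured per kilobase of exon, Arc was also the most abundant of the 7 genes after serum, at 2744 normalized counts per kilobase with control siRNA, although Sik1, Gem and Bdnf were above it in starved cells.

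Npas4 (ENSMUSG00000045903, chromosome 19 from 4984355 to 4989971), a bHLH-PAS transcription factor induced by calcium entry in neurons, had the lowest level per exon length in starved control cells. Its normalized counts were 19.6, 19.1 and 36.7 in starved control cells and 1628, 1831 and 2146 after serum. In Lap2-depleted cells they were 66.1, 81.1 and 76.2 before and 1391, 1749 and 1479 after serum. All starved Lap2-depleted libraries were above all starved control libraries, of which replicate 3 was the highest. Serum gave a log2FC of 6.24 with control siRNA (standard error 0.15, edgeR adjusted p = 3e-26) and of 4.37 with Lap2 siRNA (edgeR adjusted p = 9.77e-24).

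Homer1 (ENSMUSG00000007617, chromosome 13 from 93303757 to 93404129) encodes postsynaptic scaffold proteins, and its short form Homer1a is the activity-induced product. Gene-level counts do not separate the 12 annotated transcripts. It had 242, 229 and 269 normalized counts in starved control cells and 2354, 2078 and 2710 after serum. With Lap2 siRNA it had 223, 209 and 187 normalized counts before and 1267, 1250.2 and 1543 after serum. The 4 groups were fully separate, with Lap2-depleted libraries the lower ones in both serum conditions. The log2FC on serum was 3.27 with control siRNA (edgeR adjusted p = 2.21e-23) and 2.71 with Lap2 siRNA (edgeR adjusted p = 1.41e-20).

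Bdnf (ENSMUSG00000048482, chromosome 2 from 109674700 to 109727007) encodes a secreted neurotrophin that acts through the receptor TrkB. It had 353, 321 and 344 normalized counts in starved control cells and 1017, 917 and 898 after serum. With Lap2 siRNA it had 550.0, 640 and 605 normalized counts before and 902, 1007 and 1187 after serum. The starved groups did not overlap, while the serum-stimulated groups did. Serum gave a log2FC of 1.48 with control siRNA (edgeR adjusted p = 1.2e-14) and of 0.79 with Lap2 siRNA (edgeR adjusted p = 1.19e-08). An antisense gene, Gm45346, shares 896 exon bases with Bdnf and had 79 reads in all 12 libraries together. Whether the counting used strand was not stated.

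Sik1 (ENSMUSG00000024042, chromosome 17 from 31844248 to 31855792), a salt-inducible kinase, is itself a CREB target and holds back CREB by phosphorylating the CRTC coactivators. Its normalized counts were 1232, 1343 and 1397 in starved control cells and 3526, 3674 and 3464 after serum. In Lap2-depleted cells they were 560.1, 621 and 585 before and 2236, 2192 and 1956 after serum. As with Homer1, the 4 groups were fully separate and the Lap2-depleted libraries were lower in each serum condition. The log2FC on serum was 1.43 with control siRNA (edgeR adjusted p = 7.27e-18) and 1.85 with Lap2 siRNA (edgeR adjusted p = 3.48e-20).

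Crem (ENSMUSG00000063889, chromosome 18 from 3266048 to 3337748) encodes CRE-binding activators and repressors, among them the inducible repressor ICER, from 39 annotated transcripts that a gene-level count does not separate. It was the only one of the 7 without a serum call in control siRNA treated cells. It had 100.1, 127 and 168 normalized counts in starved control cells and 125, 153 and 151 after serum, and these groups overlapped. With Lap2 siRNA it had 78.0, 56.2 and 65.9 normalized counts before and 125, 128 and 115 after serum, without overlap. The log2FC was 0.12 with control siRNA (95% interval -0.21 to 0.45, edgeR adjusted p = 0.665) and 0.87 with Lap2 siRNA (standard error 0.18, edgeR adjusted p = 0.000252).

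Gem (ENSMUSG00000028214, chromosome 4 from 11704457 to 11714752) encodes a small GTPase of the RGK family that inhibits voltage-gated calcium channels and acts on the cytoskeleton. Its normalized counts were 429, 404 and 408 in starved control cells and 617, 575 and 593 after serum. In Lap2-depleted cells they were 369, 404 and 399 before and 714, 695 and 705 after serum. The starved groups met at 404 normalized counts, whereas the stimulated Lap2-depleted libraries were all above the stimulated control libraries. The log2FC on serum was 0.53 with control siRNA (edgeR adjusted p = 4.82e-06, or 0.32 with scaling to total counts) and 0.85 with Lap2 siRNA (edgeR adjusted p = 4.25e-10).

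**Figure D1:**
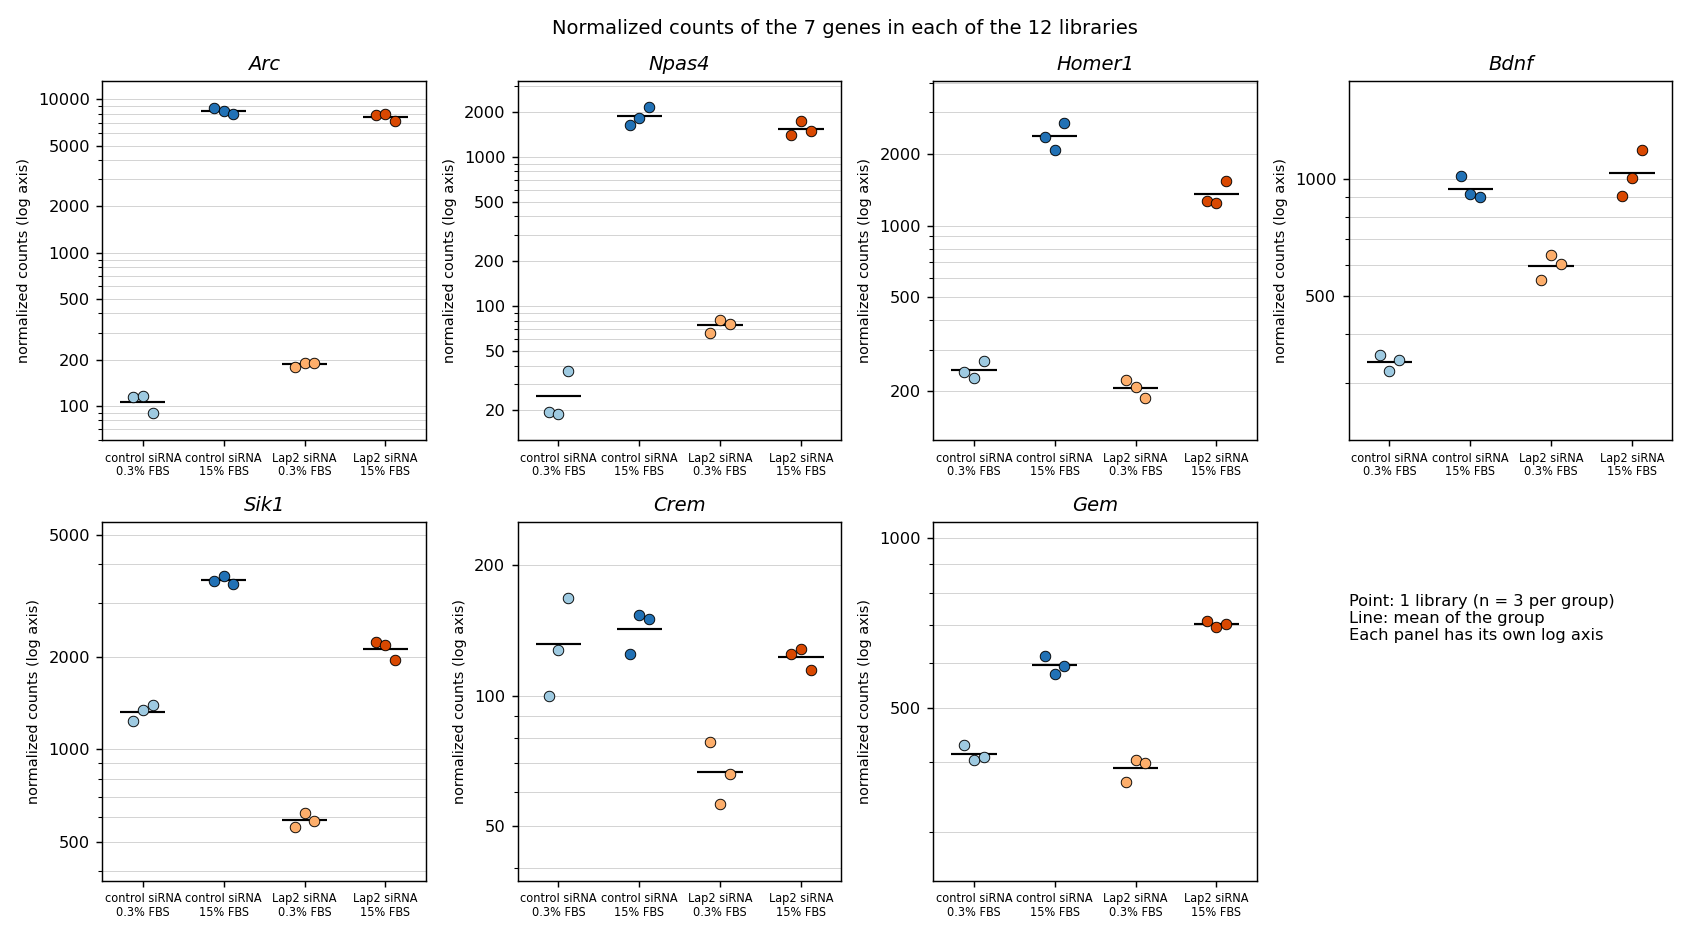
Normalized counts (log axis, a separate one in each panel) of the 7 genes in the 12 libraries, by siRNA and serum. Points are libraries, n = 3 per group, and lines are group means. Arc and Npas4 rise by more than an order of magnitude with serum, while Crem in control siRNA treated cells lies between 100.1 and 168 normalized counts in both conditions.

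Per kilobase of exon (GENCODE M21 exon lengths), the order of the 7 genes in serum-starved control cells was Sik1 with 258 normalized counts per kilobase, Gem with 197, Bdnf with 54.6, Arc with 34.7, Crem with 22.4, Homer1 with 20.6 and Npas4 with 6.07. Crem and Homer1, neighbours in that order, differed by less than the SD of Crem. After serum the order was Arc with 2744 normalized counts per kilobase, Sik1 with 692, Npas4 with 452, Gem with 283, Homer1 with 199, Bdnf with 152 and Crem with 24.3. Npas4, the lowest in starved cells, was then above Gem, Homer1, Bdnf and Crem.

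**Figure D2:**
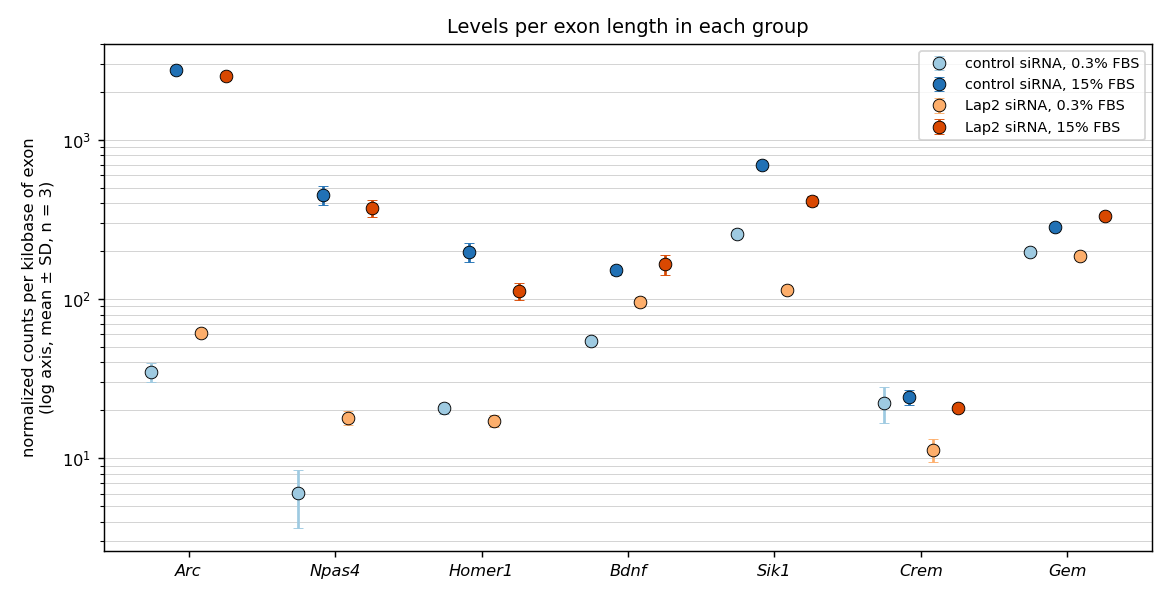
Normalized counts per kilobase of exon (log axis, mean ± SD, n = 3) of the 7 genes in the 4 groups. Sik1 and Gem are the highest in starved control cells, at 258 and 197 per kilobase, and Arc is the highest after serum.

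The study asked about the part of Lap2 in gene regulation by MRTF-A and serum response factor. In serum-starved cells the 7 genes fell into 3 kinds. Arc, Npas4 and Bdnf were higher in Lap2-depleted cells, Sik1 and Crem were lower, and Homer1 and Gem did not pass the test. Over all genes tested, 36.5% were called in this comparison, 17.8% as higher and 18.6% as lower (3330 and 3480 genes, or 4692 and 2638 when scaled to total counts), so 5 calls among 7 genes stand beside a high background. The siRNA groups did not overlap in 7 of the 7 genes, 3 higher and 4 lower (over all genes, 21.3% and 22.1%). Among the 4, Gem was separate only by 403.6 against 403.8 normalized counts, and its log2FC was 0.026 when scaled to total counts. The median log2FC of the 7 genes was -0.083, beside 0.010 over all genes tested.

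Npas4 had the largest rise, to 297% of the control mean (log2FC 1.59, standard error 0.23, edgeR adjusted p = 7.43e-07), from a mean of only 25.1 ± 10.0 normalized counts (SD, n = 3). Bdnf rose to 176% of control (log2FC 0.82, standard error 0.097, edgeR adjusted p = 2.41e-08) and Arc to 175% (log2FC 0.80, standard error 0.11, edgeR adjusted p = 3.34e-07). These 3 genes were higher in Lap2-depleted cells in every starved library. Sik1 fell to 44.5% of control (log2FC -1.17, standard error 0.075, edgeR adjusted p = 2.24e-14). Crem fell to 50.6% of control (log2FC -0.97, standard error 0.18, edgeR adjusted p = 4.22e-05). Homer1 was at 83.8% of control (log2FC -0.25, 95% interval -0.49 to -0.008, edgeR adjusted p = 0.103) and Gem at 94.4% (log2FC -0.083, 95% interval -0.26 to 0.092, edgeR adjusted p = 0.494).

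After serum the pattern was another. Homer1 and Sik1 were lower in Lap2-depleted cells, and the calls for Npas4 (lower) and Gem (higher) were marginal. Arc, Bdnf and Crem did not pass the test. Over all genes tested, 23.4% were called, 11.4% as higher and 12.1% as lower (2125 and 2250 genes, or 3471 and 1678 when scaled to total counts). The groups did not overlap in 1 gene that was higher and 2 that were lower (over all genes, 20.3% and 18.5%). The median log2FC of the 7 genes was -0.22, beside 0.017 over all genes tested.

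Homer1 fell to 56.9% of control (log2FC -0.81, standard error 0.088, edgeR adjusted p = 9.03e-09), the largest change of the 7 in stimulated cells, and Sik1 to 59.9% (log2FC -0.74, standard error 0.068, edgeR adjusted p = 2.95e-10). In both genes no Lap2-depleted library reached a control library. Npas4 was at 82.4% of control (log2FC -0.28, standard error 0.095, edgeR adjusted p = 0.0304), with groups that overlapped, and its call was lost with 4 of the 6 stimulated libraries left out in turn (adjusted p 0.0621 to 0.292), with a log2FC of -0.16 without control replicate 3. Gem was at 118% of control (log2FC 0.24, standard error 0.081, edgeR adjusted p = 0.0252) with groups that did not overlap, and its call was lost when any of the 6 stimulated libraries was left out (adjusted p 0.0512 to 0.109). The 95% intervals of the log2FC were -0.25 to 0.011 for Arc, -0.049 to 0.31 for Bdnf and -0.56 to 0.12 for Crem.

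**Figure D3:**
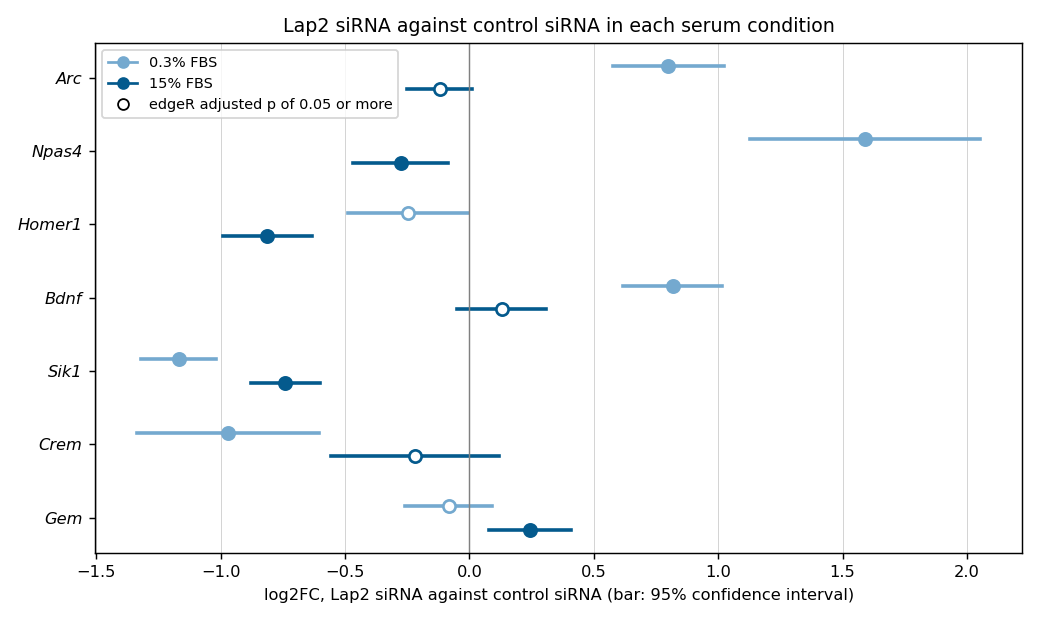
log2FC of Lap2 siRNA against control siRNA for the 7 genes, in 0.3% FBS (light) and 15% FBS (dark), with 95% confidence intervals. Open points have an edgeR adjusted p of 0.05 or more. Arc, Npas4 and Bdnf lie above 0 in starved cells and between -0.28 and 0.13 after serum, while Sik1 lies below 0 in both.

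Exact permutation tests of log2 CPM between 2 groups of 3 libraries (two-sided, 20 arrangements) cannot give a p under 0.1. That smallest p was reached wherever the groups did not overlap. In stimulated cells it was 0.2 for Arc, Npas4 and Crem and 0.6 for Bdnf, and for the serum response of Crem with control siRNA it was 0.7.

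The serum response differed between the siRNAs in 6 of the 7 genes, by the interaction term of the same fit. Over all genes tested, 13.6% had such a difference, 6.51% with a smaller and 7.09% with a larger log2FC on serum with Lap2 siRNA. As counts these were 1216 and 1324 genes, against 1462 and 1241 with DESeq2 and 1341 and 1160 when scaled to total counts. The median interaction log2FC of the 7 genes was -0.56, beside 0.020 over all genes tested. The responses were smaller with Lap2 siRNA for Npas4 (interaction log2FC -1.87, standard error 0.25, edgeR adjusted p = 1.26e-06), Arc (-0.92, standard error 0.13, edgeR adjusted p = 2.68e-06), Bdnf (-0.69, standard error 0.13, edgeR adjusted p = 0.000294) and Homer1 (-0.56, standard error 0.15, edgeR adjusted p = 0.00768). Sik1 had a larger response (0.43, standard error 0.10, edgeR adjusted p = 0.00292). Crem did as well (0.75, standard error 0.24, edgeR adjusted p = 0.0359), but its call was lost with DESeq2 (adjusted p = 0.0501) and with 7 of the 12 libraries left out in turn. The value for Gem was 0.33 (95% interval 0.087 to 0.57, edgeR adjusted p = 0.0621).

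Folds and increases in normalized counts were also set side by side. Mean Npas4 rose 74.4-fold with control siRNA and 20.7-fold with Lap2 siRNA, and mean Arc rose 79.0-fold and 41.4-fold. The increase in normalized counts was 1843 ± 151 and 1465 ± 108 for Npas4 (SE, n = 3 in each group) and 8281 ± 236 and 7531 ± 265 for Arc. For both genes the difference between siRNAs was larger in starting level than in increase, when taken as a ratio. Homer1 gained 2134 ± 183 normalized counts with control siRNA and 1147 ± 95.4 with Lap2 siRNA, from 247 ± 20.2 and 207 ± 18.0 (SD, n = 3). Sik1 had the larger fold with Lap2 siRNA (3.61 against 2.69) and the smaller increase (1539 ± 88.6 against 2231 ± 79.0 normalized counts). Gem had both a larger fold (1.80 against 1.44) and a larger increase (314 ± 12.1 against 181 ± 14.4 normalized counts) with Lap2 siRNA. Bdnf gained 604 ± 38.1 normalized counts with control siRNA and 434 ± 87.3 with Lap2 siRNA (SE), from 340 ± 16.4 and 598 ± 45.2 (SD, n = 3). Crem gained 11.1 ± 21.7 and 56.0 ± 7.48 normalized counts (SE). The increases were not tested.

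**Figure D4:**
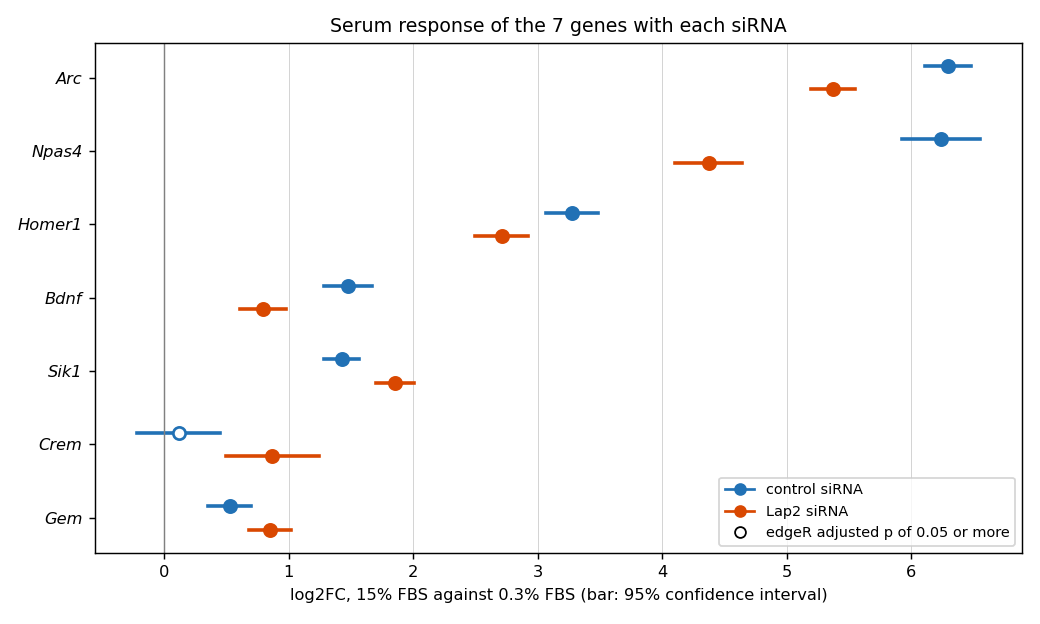
log2FC of 15% FBS against 0.3% FBS for the 7 genes with control siRNA (blue) and Lap2 siRNA (orange), with 95% confidence intervals. Open points have an edgeR adjusted p of 0.05 or more. The values for Arc, Npas4, Homer1 and Bdnf are lower with Lap2 siRNA and those for Sik1, Crem and Gem are higher.

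Among the genes that sit above these targets, 8 CREB family factors and coactivators (Crem included) were tested. On serum with control siRNA 1 was higher and 1 lower (over all genes tested, 15.6% and 13.9%). In starved Lap2-depleted cells 3 were higher and 4 lower (over all genes tested, 17.8% and 18.6%). When scaled to total counts, the former became 1 and 5 and the latter 4 and 3. Atf1, a factor closely related to CREB, had 965 ± 40.8 normalized counts in starved control cells and 1391 ± 79.6 in starved Lap2-depleted cells (SD, n = 3; log2FC 0.53, edgeR adjusted p = 1.76e-07), and it was also higher after serum (log2FC 0.46). Creb1 had a log2FC of -0.43 with Lap2 siRNA after serum and of -0.21 in starved cells, where the call was lost with scaling to total counts (adjusted p = 0.309) and without control replicate 2 (-0.10, adjusted p = 0.361), Lap2-depleted replicate 1 or Lap2-depleted replicate 3. The 3 CRTC coactivators differed among themselves. Crtc1 (log2FC -0.58) and Crtc3 (-0.59) were lower and Crtc2 (0.38) higher in starved Lap2-depleted cells. Of the acetyltransferases, Ep300, which encodes p300, had a log2FC of 0.26 in starved cells (0.41 without Lap2-depleted replicate 1, 0.19 and not called without replicate 2, 0.21 and not called without replicate 3), and Crebbp, which encodes CBP, did not pass the test (0.13, edgeR adjusted p = 0.248).

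Of 9 genes for protein kinase A subunits and regulators, 6 were called on serum with control siRNA, all higher (with scaling to total counts, 3 higher and 1 lower). Over all genes tested, 15.6% were higher and 13.9% lower in that comparison. In starved Lap2-depleted cells 2 were higher and 4 lower (with scaling to total counts, 3 and 3), beside 17.8% and 18.6% of all genes tested. Akap12, an anchoring protein for the kinase, had 4856 ± 302 normalized counts in starved control cells and 2167 ± 258 in starved Lap2-depleted cells (SD, n = 3; log2FC -1.17), and its log2FC was -1.10 after serum. Pkia, an inhibitor peptide of the catalytic subunit, had a log2FC of -1.04 and -0.95 in the 2 serum conditions, and Pkig, another inhibitor, had 0.57 and 0.32, the latter not called without control replicate 2 or Lap2-depleted replicate 3 (adjusted p up to 0.0676). The catalytic subunit gene Prkacb had a log2FC of 0.34 on serum with Lap2 siRNA, and the regulatory subunit gene Prkar1a had 0.24 on serum with control siRNA. Neither was called with scaling to total counts. Prkar2a, a regulatory subunit, had a smaller serum response with Lap2 siRNA (interaction log2FC -0.47).

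The calcium- and growth-factor-activated kinases of CREB numbered 12, of which Camk4 did not pass the count filter. Of the 11 tested, 4 were higher and 1 lower on serum with control siRNA, and 4 were called in stimulated Lap2-depleted cells, all lower. Over all genes tested, 15.6% were higher and 13.9% lower in the former comparison, and 11.4% and 12.1% in the latter. Camk2g, a CaM kinase II subunit, rose on serum with control siRNA (log2FC 1.29) and less so with Lap2 siRNA (0.77; interaction -0.51, edgeR adjusted p = 0.000111). Mapkapk2, a kinase downstream of p38, rose by 1.14 and 0.86 on the log2 scale. Rps6ka2, an RSK kinase, was lower with Lap2 siRNA (log2FC -0.79 starved, -0.63 stimulated), as was Rps6ka5, which encodes MSK1 (-0.68 and -0.58). Rps6ka3, another RSK kinase, and Camk2d, another CaM kinase II subunit, had -0.32 and -0.23 in stimulated Lap2-depleted cells, the latter not called with scaling to total counts (adjusted p = 0.0853), and Camkk1, a kinase of CaM kinases, fell on serum with control siRNA (-0.68). Of 11 genes for cAMP synthesis and breakdown, 1 was higher and 1 lower on serum with control siRNA (over all genes, 15.6% and 13.9%). In starved Lap2-depleted cells 1 was higher and 3 lower, a share near the 36.5% of all genes tested. Pde4b, a cAMP phosphodiesterase, fell on serum with control siRNA (log2FC -1.41) and with Lap2 siRNA (-0.98), and Pde10a was lower in starved Lap2-depleted cells (-0.76). Pde4a had a log2FC of 0.33 and Pde7a of -0.25 in starved Lap2-depleted cells, the latter not called with scaling to total counts (adjusted p = 0.109), and Pde4d fell on serum with Lap2 siRNA (-0.47). Among the adenylyl cyclases, Adcy9 rose on serum with Lap2 siRNA (0.65, or 0.42 with scaling to total counts) and Adcy6 had a larger serum response (interaction 0.35). Adcy3 had -0.57 in stimulated Lap2-depleted cells, a call lost with DESeq2, with scaling to total counts and with 4 of the libraries left out in turn.

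A further 32 genes regulated through CRE or by activity were listed, of which 28 were tested and Nptx2, Pcsk1, Penk and Sst were not. The list was chosen with earlier results of these data known, so its counts are a description and not a test of such genes. On serum with control siRNA 25 were called, all higher (over all genes tested, 15.6%), with a median log2FC of 4.41. In starved Lap2-depleted cells 15 were higher and 3 lower, and after serum 6 were higher and 9 lower (10 higher and 8 lower with scaling to total counts). Over all genes tested, 17.8% were higher and 18.6% lower in starved cells, and 11.4% and 12.1% after serum. The serum response was smaller with Lap2 siRNA in 15 and larger in 3 (over all genes tested, 6.51% and 7.09%), with a median interaction log2FC of -0.73. Ptgs2, the inducible cyclooxygenase, was higher in starved Lap2-depleted cells (log2FC 2.22, edgeR adjusted p = 3.13e-21) and had an interaction log2FC of -2.12. Vgf, a secreted neuropeptide precursor, was also higher in starved Lap2-depleted cells (log2FC 1.63, edgeR adjusted p = 2.32e-05), as were Dusp1, a MAP kinase phosphatase (1.13), and Nr4a2, an orphan nuclear receptor (0.99). After serum Inhba, an activin subunit, was lower with Lap2 siRNA (log2FC -1.12), as were Rgs2 (-0.83), which turns off G protein signalling, and Plk2 (-0.78), a polo-like kinase. Rgs2 was higher on serum with control siRNA (log2FC 0.65) and lower with Lap2 siRNA (-0.52). Of the zinc finger factors, Egr2 had an interaction log2FC of -1.22, and Egr4 had a log2FC of -0.70 in stimulated Lap2-depleted cells. On serum the nuclear receptor genes Nr4a1 and Nr4a3 rose with control siRNA (log2FC 8.16 and 7.70) and with Lap2 siRNA (7.43 and 7.06), as did Fosb, an AP-1 subunit (6.78 and 7.23).

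**Figure D5:**
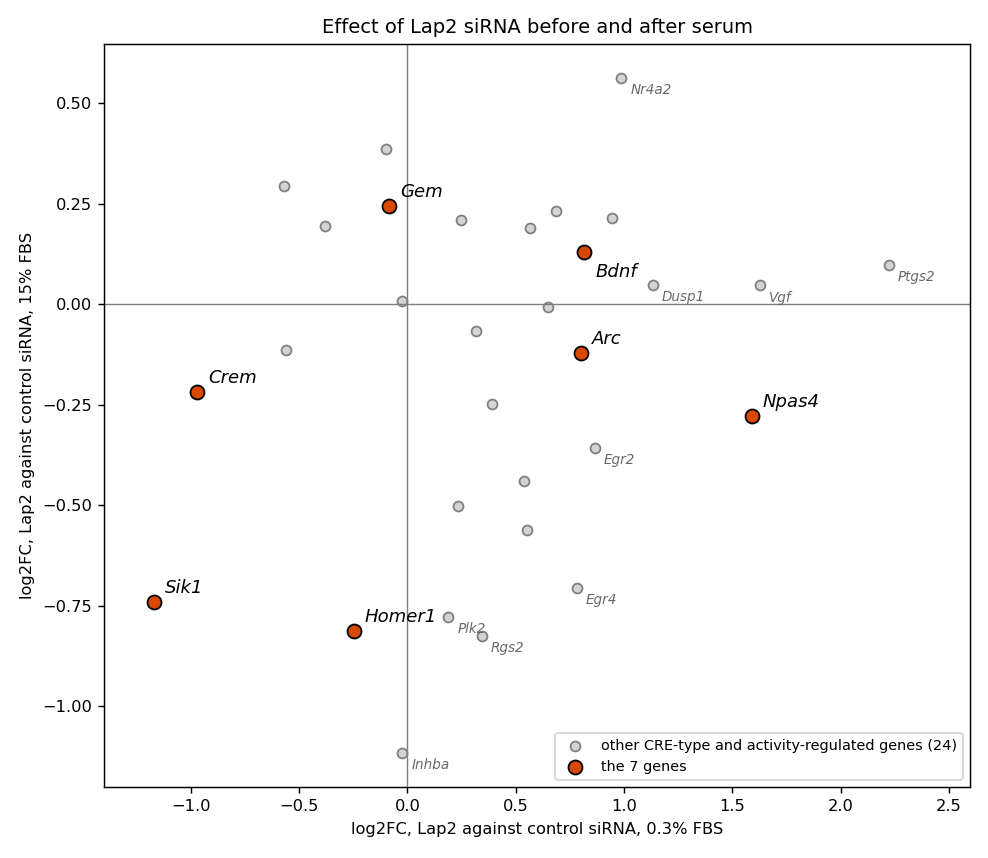
log2FC of Lap2 siRNA against control siRNA in 0.3% FBS (horizontal axis) and 15% FBS (vertical axis) for the 7 genes (orange) and for 24 other CRE-type and activity-regulated genes averaging 20 or more normalized counts (grey). Named grey points have an absolute log2FC of 0.75 or more on either axis. Arc, Npas4 and Bdnf lie to the right with Vgf and Dusp1, and Homer1 lies low with Inhba, Plk2 and Rgs2.

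Among relatives of the 7 genes, Sik2 did not pass the test in any of the 5 comparisons. Sik3 was called on serum with control siRNA (log2FC 0.23, edgeR adjusted p = 0.0218), a call lost with scaling to total counts (0.022, adjusted p = 0.861), with upper-quartile scaling and without control starved replicate 3, control stimulated replicate 1 or control stimulated replicate 2 (adjusted p up to 0.159). It had a log2FC of 0.26 in starved Lap2-depleted cells, a call lost without Lap2-depleted replicate 3 (adjusted p = 0.0569). Of the class IIa histone deacetylases that SIK kinases phosphorylate, Hdac5 was higher with Lap2 siRNA (log2FC 0.49 starved, 0.35 stimulated), Hdac7 lower (-0.36 and -0.32), Hdac4 uncalled (-0.16 and -0.066) and Hdac9, with a mean of 22.1 normalized counts, higher in stimulated cells (1.30, or 0.86 and not called without control replicate 2 and 1.93 without control replicate 1). Homer3 did not pass the test in any comparison and Homer2 did not pass the count filter. Sort1, a sorting receptor for neurotrophins, was lower in starved Lap2-depleted cells (log2FC -0.87) and had a larger serum response (interaction log2FC 0.92). Ntf5 and Ntrk3 had means of 17.3 and 13.9 normalized counts, with a log2FC of -2.20 and 2.87 in starved Lap2-depleted cells, the latter 3.62 without control replicate 3. Ntf3 and Ntrk2 did not pass the count filter. Rrad, the RGK relative of Gem, was lower in starved Lap2-depleted cells (log2FC -1.70), with Rem1 and Rem2 under the count filter. On serum Rrad rose with Lap2 siRNA (1.14) and was not called with control siRNA (0.069). Its interaction log2FC was 1.07 (edgeR adjusted p = 0.0349, up to 0.147 with a library left out). In stimulated Lap2-depleted cells Rrad had -0.63 (edgeR adjusted p = 0.0434, up to 0.313 with a library left out). Arnt and Arnt2, dimerization partners of bHLH-PAS proteins, were lower in starved Lap2-depleted cells (-0.39 and -0.47), Npas2 and Npas3 passed no test, and Npas1 was under the count filter.

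The genes whose log2 CPM over the 12 libraries was most like that of each gene are a description only, since the libraries share the serum and siRNA groups. Among 10448 other genes averaging 100 or more normalized counts, Arc was near to Egr2 (Pearson r 0.999) and Zc3h12a (0.999). Npas4 was nearest to Dusp5 (0.996), Etf1 (0.996) and Trib1 (0.995). Homer1 was nearest to Arpc4 (0.997), Stbd1 (0.997) and Inhba (0.996), and Bdnf to Net1 (0.995), Dusp4 (0.992) and Cdv3 (0.991). Sik1 was nearest to Glipr2 (0.995), Itgb1 (0.992) and Jag1 (0.991), and Gem to Inafm2 (0.990), Pim3 (0.987) and Map7d1 (0.987). The nearest genes of Crem were less alike: Gulp1 (0.965), Ryk (0.960) and Camk1 (0.948).

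Cell identity was checked with marker genes. The 12 fibroblast markers summed to between 528645 and 991605 normalized counts per library, with Fn1 the most abundant, and none was under 10 on average. Their sum was 873384 to 895079 in starved control libraries and 528645 to 634625 in starved Lap2-depleted libraries, and 902258 to 991605 and 641714 to 718296 after serum. With Lap2 siRNA 2 of the 12 were higher and 8 lower in starved cells, and 1 was higher and 9 lower after serum (edgeR). Over all genes tested, 17.8% were higher and 18.6% lower in starved cells, and 11.4% and 12.1% after serum. The collagen gene Col3a1 (log2FC -1.67), the matrix proteoglycans Dcn (-1.52) and Lum (-1.34) and the receptor gene Pdgfra (-1.61) were lower in starved Lap2-depleted cells. Thy1, a surface protein, and Col1a1, another collagen gene, were lower in stimulated Lap2-depleted cells (-0.56 and -0.58), and Twist1, a mesenchymal transcription factor, rose on serum with control and with Lap2 siRNA (0.59 and 0.93, the former 0.39 with scaling to total counts). The part of this difference in the values of the 7 genes was not tested. The 15 neuron markers summed to between 3840 and 4936 normalized counts. The most abundant were Dlg4 (mean 2133), a scaffold gene, and Gria1 (mean 1384), an AMPA receptor subunit gene, and 8 of the 15 were under 10. Rbfox3, Gad1, Gad2 and Nefl did not pass the count filter. Gria1 had a log2FC of 0.31 on serum with control siRNA (0.10 and not called with scaling to total counts) and of 0.56 in starved Lap2-depleted cells. Its log2FC was 0.20 in stimulated Lap2-depleted cells (edgeR adjusted p = 0.0388, up to 0.181 with a library left out). Slc17a7, a vesicular glutamate transporter gene with a mean of 26.3 normalized counts, had -1.28 in stimulated Lap2-depleted cells. In starved Lap2-depleted cells 2 of the 11 tested were higher and 2 lower, a share near the 36.5% of all genes tested. Among the lower was Tubb3, at 106.6 ± 5.03 normalized counts in control and 13.2 ± 1.63 in Lap2-depleted cells (SD, n = 3). The 6 glia markers summed to between 77.1 and 165 normalized counts, led by Gfap (mean 35.6), with Aqp4 and Olig2 at 0 in every library. Of the 4 tested, 3 were lower in starved Lap2-depleted cells, beside 18.6% of all genes tested. The 7 epithelial, endothelial and blood markers summed to between 49.7 and 85.8 normalized counts, led by Cd68 (mean 39.5), with no call in any comparison by edgeR as fitted here or DESeq2 (0 genes) and 1 gene lower at an unadjusted p under 0.05, on serum with control siRNA. With scaling to total counts 1 of them was lower on serum with control siRNA and 1 with Lap2 siRNA, and with a count above 1 in every library 1 was lower in starved Lap2-depleted cells.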

How the data were processed

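RNA-seq counts of 12 libraries of NIH 3T3 cells were used, and groups were taken from the labels. Per the labels and methods, the authors depleted ribosomal RNA, made directional libraries, aligned reads with TopHat2 to mm10 (GRCm38) and deposited raw HTSeq counts per gene without normalization. Versions and the strand setting of the counting are not given in the sources used here. Of the 49671 identifiers, 99.3% had a symbol.

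The counts were tested in R 4.3.3 with edgeR 4.0.16: TMM factors, 1 quasi-likelihood fit of 4 group means over 18668 genes (above 1 read in 3 or more libraries), 5 contrasts, and Benjamini-Hochberg adjustment over all genes tested with a threshold of 0.05. The standard error and 95% interval of a log2FC were derived from the log2FC and the F statistic of its test, so they are approximate. They may be too narrow where counts are low and changes large, as for Npas4 on serum. Log2 CPM used a prior count of 2. Promoter words were counted in Python 3.11.15, and figures drawn with matplotlib 3.10.9. The fit was tested on simulated data, but the outcome is not given here, so no result rests on it. The study's own analysis used DESeq, and edgeR replaced it here for all comparisons.

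The members and gene lists were chosen with earlier results of these data known. From lists with more than 6 tested genes, up to 4 per comparison with the largest change were named among those past the test with at least 20 normalized counts on average, plus all CREB family factors. Likeness was ranked over genes with at least 100 normalized counts. The alternatives were DESeq2 1.42.0, 2 other scalings, 3 other count filters, the replicate block, fits limited to the groups compared, an adjusted p under 0.01, a prior count of 0.5, Spearman's rho and each library left out in turn. Not every gene that these rules would name is reported here.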

Additional observations from a re-analysis of the deposited data

Results flagged for a closer look

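Results were flagged where the serum response differed between control siRNA and Lap2 siRNA by the interaction term of the edgeR fit. The interaction log2FC was -1.87 for Npas4 (edgeR adjusted p = 1.26e-06), from 6.24 with control siRNA to 4.37 with Lap2 siRNA. It was -0.92 for Arc (edgeR adjusted p = 2.68e-06), from 6.29 to 5.37. It was -0.69 for Bdnf (edgeR adjusted p = 0.000294), from 1.48 to 0.79, and -0.56 for Homer1 (edgeR adjusted p = 0.00768), from 3.27 to 2.71. Sik1 went the other way, with 0.43 (edgeR adjusted p = 0.00292), from 1.43 to 1.85, as did Crem with 0.75 (edgeR adjusted p = 0.0359), from 0.12 to 0.87. The siRNA target Tmpo had an interaction log2FC of -0.79 (edgeR adjusted p = 2.95e-06), from 0.17 to -0.62. Dixon's test for an outlying library was not run on groups of 3 libraries.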

How the results depend on the processing

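Scaling to total counts moved the median log2FC of all genes tested by -0.21 (serum, control siRNA), -0.23 (serum, Lap2 siRNA) and 0.11 (Lap2 siRNA, starved), and upper-quartile scaling moved the serum response with Lap2 siRNA by -0.11. With total counts the serum log2FC of Crem with control siRNA was -0.089, that of Tmpo was -0.036 and the log2FC of Gem in starved Lap2-depleted cells was 0.026, each the other sign from the main value, and none passed the test. Npas4 in stimulated cells was no longer called (log2FC -0.19, adjusted p = 0.147). Gem in stimulated cells was no longer called without a count filter (adjusted p = 0.066), and its interaction passed with filterByExpr (adjusted p = 0.0399) and with a count above 1 in every library (adjusted p = 0.0433). At an adjusted p under 0.01, 2 of the 7 genes and 3044 of all genes tested were called in stimulated cells, and 5 of the 7 and 1514 of all had an interaction.

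With each library left out in turn, 2 to 4 of the 7 genes were called in stimulated cells and 5 to 6 for the interaction. The serum log2FC of Crem with control siRNA ranged from -0.034 to 0.33. The interaction of Crem ranged from 0.52 to 0.89 (adjusted p up to 0.194), the lowest without control starved replicate 3. In the other 3 comparisons the number called stayed at 6, 7 and 5. Of the 3 genes most like each by Pearson's r, Spearman's rho shared 1 for Arc, 0 for Npas4, 0 for Homer1, 1 for Bdnf, 0 for Sik1, 0 for Crem and 0 for Gem.

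The labels number the libraries across groups, and replicate numbers follow that order within each group. Same-numbered libraries of different groups had correlations of deviations between -0.034 and 0.043 (18 pairs, 0 over 0.1). This gave no sign of pairing by these numbers, but it cannot exclude that libraries were grown or prepared together. With the replicate block, 6, 7, 5, 4 and 6 of the 7 genes were called in the order serum with control siRNA, serum with Lap2 siRNA, Lap2 siRNA starved, Lap2 siRNA stimulated and interaction, as without it. With 3 libraries a group, the mean of Npas4 in starved control cells, 25.1 normalized counts, had an SD of 10.0.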
